A study of Mus musculus with 81 samples.

Results

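Pml and the Sp100 family genes Sp100, Sp110 and Sp140 were followed through RNA-seq libraries of mouse macrophages with and without histone H3.3. These 4 genes were taken by symbol from the 54079 genes listed for every library, with earlier results of these data known. All 4 were listed for each of the 81 libraries, and all 4 passed the filter on low counts in each of the 5 experiments.

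PML is the scaffold of PML nuclear bodies, small round bodies in the nucleus that hold many proteins through their modification with SUMO, a small ubiquitin-like protein. SP100 is a second resident protein of these bodies, while SP110 and SP140 are related nuclear proteins that share its DNA-binding SAND domain and bind to chromatin. In macrophages the 4 genes are known as interferon-stimulated genes, and PML bodies also hold DAXX, a chaperone that deposits H3.3 on chromatin.

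H3.3 is the histone H3 variant that is placed on chromatin outside of DNA replication, and is made from H3f3a and H3f3b. WT mice were H3f3a fl/fl H3f3b fl/fl without Cre, and cKO mice carried the same floxed alleles with LysM cre/cre, a Cre placed in the lysozyme gene Lyz2, which acts in myeloid cells and disrupts Lyz2. Thus the loss of H3.3, the presence of Cre and the loss of Lyz2 cannot be told apart between the genotypes. Mice were of C57BL/6 background, of both sexes and 8 to 10 weeks old. Of the 81 libraries, 79 fell into 27 groups, 25 of 3 libraries and 2 of 2 libraries. The 18 libraries of the time course came from WT and cKO bone marrow cells on days 3, 5 and 7 of culture in L929 cell-conditioned medium, in which they become bone marrow-derived macrophages (BMDMs). Day 8 BMDMs (10 libraries) were untreated or had interferon-γ (IFNγ) for 12 h. Peritoneal macrophages (6 libraries) were taken from WT and cKO mice without culture. BMDMs of the antibody experiment (18 libraries) had no antibody, a control antibody, or an antibody that blocks IFNAR1, the receptor chain shared by type I interferons, renewed every 12 h, and were lysed on day 6. The last 27 libraries held 3 sets of WT and cKO BMDMs and the double KOs H3.3cKO:StingKO, H3.3cKO:MavsKO and H3.3cKO:Irf7KO. These carried, beside the cKO alleles, a knockout of the DNA-sensing adaptor Sting, of the RNA-sensing adaptor Mavs or of the interferon regulator Irf7. Sting KO and Irf7 KO mice were crossed with cKO mice, and Mavs KO mice were backcrossed to them for at least 6 generations. The labels do not say which set was grown beside which double KO, nor whether libraries of different sets share animals. The labels number the libraries of a group as biological replicates, without naming animals.

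Counts on genes ranged from 3614967 to 45581528 per library (median 18333377). H3f3a averaged 36.4 to 76.4 counts scaled to library size (CPM) in the WT groups and 3.25 to 15 CPM in the cKO groups. H3f3b averaged 35.2 to 49.8 CPM in the cKO groups of the antibody experiment (WT 306 to 376 CPM), but 168 to 329 CPM in the other cKO groups and 218 to 438 CPM in the other WT groups, so its gene count did not show the deletion there. In the double KOs, Tmem173, which encodes STING, stood at 5.52 CPM in H3.3cKO:StingKO and Irf7 at 106 CPM in H3.3cKO:Irf7KO, below all cKO sets (72.0 to 88.1 and 310 to 388 CPM), whereas Mavs at 37.5 CPM in the libraries labelled H3.3cKO:MavsKO overlapped with cKO set 3 (38.9 CPM). H3f3b averaged 121 CPM in H3.3cKO:Irf7KO, against 194 to 203 CPM in the cKO sets, and H3f3a 4.81 CPM against 8.19 to 10.5 CPM. The 6 macrophage markers were present in every group, with summed levels of 2482 to 11320 CPM. WT and cKO libraries of sets 1 and 3 lay as near to each other as libraries within a set (median chi-square per degree of freedom 43.2 between WT sets 1 and 3, 46.4 within set 1 and 46.7 within set 3, against 157 between sets 1 and 2), so these sets are not clearly separate experiments.

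Pml lies on chromosome 9 (GRCm38, chr9:58218076-58249786, minus strand), with 5571 bases of exons. The other 3 genes lie beside each other on chromosome 1 within 133100 bases. Sp110 is at chr1:85576899-85598817 on the minus strand (6781 bases of exons), Sp140 at chr1:85600378-85645037 on the plus strand (3328 bases) and Sp100 at chr1:85649988-85709998 on the plus strand (7556 bases). Sp110 and Sp140 are transcribed away from each other, with 1560 bases between them, and 4950 bases part Sp140 from Sp100. Of the exon bases of Sp140, 26.5% are shared with other annotated genes, mostly with the antisense gene Gm17017, against 5.78% for Sp110, 1.89% for Pml and 1.38% for Sp100. Reads on shared bases are not assigned when counted without strand. The counts used here held 73.1% of the reads that both strand columns together give to Sp140 (38.7% to 79.0% over the libraries) and 84.2% of those for Sp110, but 99.54% for Pml and 99.99% for Sp100. Read on either strand, 57.3% of the 50-base stretches of Sp140 transcripts and 42.3% of those of Sp110 also occur in transcripts of other genes, against 5.92% for Sp100 and 1.34% for Pml. These shares partly repeat the overlap above, as Gm17017 is the gene that shares the most stretches with Sp140. Levels of Sp140 and Sp110 are thus less certain than those of Pml and Sp100.

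The promoters are shown because the 4 genes moved together in several comparisons below. RefSeq windows (GRCm38.p6) of 300 bases that end 50 bases into the transcript were searched on both strands for the interferon-stimulated response element GAAANNGAAA, the interferon-γ-activated site TTCNNNGAA and the shorter core AANNGAAA that interferon regulatory factors bind. Capitals mark the core, here read on the opposite strand. The windows are chr9:58249737-58250036 (minus) for Pml, chr1:85649738-85650037 (plus) for Sp100, chr1:85598761-85599060 (minus) for Sp110 and chr1:85600453-85600752 (plus) for Sp140.

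Pml promoter: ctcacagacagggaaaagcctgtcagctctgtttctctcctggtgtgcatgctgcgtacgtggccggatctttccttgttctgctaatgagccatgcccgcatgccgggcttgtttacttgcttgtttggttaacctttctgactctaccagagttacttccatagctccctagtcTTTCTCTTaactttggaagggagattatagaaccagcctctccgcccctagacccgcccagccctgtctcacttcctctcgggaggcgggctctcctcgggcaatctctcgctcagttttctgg

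Sp100 promoter: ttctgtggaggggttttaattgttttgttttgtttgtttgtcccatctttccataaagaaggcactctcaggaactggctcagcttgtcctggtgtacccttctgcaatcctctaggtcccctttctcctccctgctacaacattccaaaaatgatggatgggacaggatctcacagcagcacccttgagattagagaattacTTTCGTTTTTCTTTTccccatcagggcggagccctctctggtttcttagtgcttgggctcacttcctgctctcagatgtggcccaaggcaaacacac

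Sp110 promoter: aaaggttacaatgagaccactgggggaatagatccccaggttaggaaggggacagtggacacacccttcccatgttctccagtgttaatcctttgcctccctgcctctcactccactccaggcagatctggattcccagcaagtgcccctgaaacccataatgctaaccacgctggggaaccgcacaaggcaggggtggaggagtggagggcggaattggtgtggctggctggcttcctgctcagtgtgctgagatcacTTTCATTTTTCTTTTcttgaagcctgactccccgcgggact

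Sp140 promoter: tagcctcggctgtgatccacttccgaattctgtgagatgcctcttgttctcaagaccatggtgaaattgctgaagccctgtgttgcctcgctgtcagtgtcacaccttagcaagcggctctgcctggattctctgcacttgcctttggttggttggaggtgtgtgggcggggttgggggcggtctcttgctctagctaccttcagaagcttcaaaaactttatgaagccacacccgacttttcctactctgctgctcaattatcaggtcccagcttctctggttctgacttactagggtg

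No window held GAAANNGAAA or TTCNNNGAA, which were found in 3.44% and 8.3% of all 32851 windows. The core AANNGAAA was found in 23.9% of all windows. It occurred once in the Pml window, at bases -74 to -67 from the start, and in a touching pair in the Sp100 window, at -47 to -40 and -40 to -33. The Sp110 window held the same arrangement just inside the transcript, at 10 to 17 and 17 to 24, and the Sp140 window held none. Around these pairs, Sp100 and Sp110 share the longest run of any 2 of the windows, 18 bases with 1 mismatch (ACTTTCNTTTTTCTTTTC), which 3 genes of 27025 have in their windows, these 2 and Gm7609. Other pairs of the members shared runs of 10 to 12 bases. A second RefSeq window of Sp100 held the same pair, and the second of Sp110 had no core. These matches describe letters in a window and not sites that were measured.

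Per kilobase of exon, Sp100 had the highest mean level of the 4 genes in 16 of the 27 groups, Pml in 9 and Sp140 in 2. Sp110 had the lowest in 18 and Sp140 in 9. Mean levels per kilobase ran from 5.87 to 60.7 CPM for Pml, 3.77 to 57.9 CPM for Sp100, 1.48 to 28.9 CPM for Sp110 and 3.599 to 33.7 CPM for Sp140. All 4 genes had their highest group mean in cKO day 8 BMDMs with IFNγ, a group of 2 unlike libraries. For Sp100, Sp110 and Sp140 this rests on replicate 2 alone, since replicate 1 (229, 98.4 and 47.7 CPM) lay below the means of WT with IFNγ (340, 161 and 107 CPM). For Pml, Sp100 and Sp110 the lowest was in WT BMDMs with the control antibody, and for Sp140 in WT BMDMs of set 2. The highest group mean was 10.3 times the lowest for Pml, 15.4 times for Sp100, 19.6 times for Sp110 and 9.37 times for Sp140. The last 3 ratios rest on that replicate 2, and as experiments were scaled separately, these ratios carry no test.

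On day 3 of culture, all 4 genes were higher in cKO than in WT cells. Sp100 had the largest difference, at 4.75-fold, followed by Pml at 2.85-fold, Sp110 at 2.69-fold and Sp140 at 2.22-fold. Over all genes tested, 6% were called higher (adjusted p under 0.05), against 4 of 4 members. The median log2 fold change of the 4 was 1.47, against 0.0365 over all genes.

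Pml counted 41.9, 43.6 and 41.0 CPM in the WT libraries of day 3 and 106, 118 and 136 CPM in cKO. This gave a log2 fold change of 1.51 ± 0.27 (SE; adjusted p = 0.00227). Sp100, its partner in the nuclear bodies, was at 38.0, 42.4 and 38.7 CPM in WT and 198, 156 and 212 CPM in cKO. Its log2 fold change was 2.25 ± 0.396 (adjusted p = 0.00207). Every cKO library thus lay above all WT libraries for both genes, as for 18.3% of all genes. Sp110, which is linked to the control of mycobacteria in macrophages, had 14.5, 19.2 and 15.3 CPM in WT and 45.1, 34.2 and 52.8 CPM in cKO, with a log2 fold change of 1.43 ± 0.277 (adjusted p = 0.00404). Sp140, an immune-restricted reader of chromatin, had 10.3, 11.9 and 13.8 CPM in WT and 25.5, 24.2 and 30.3 CPM in cKO, with a log2 fold change of 1.15 ± 0.328 (adjusted p = 0.0384). Groups did not overlap here either. The call of Sp140 was lost without any 1 of the 6 libraries (adjusted p 0.0611 to 0.149), whereas the other 3 kept theirs.

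**Figure D1:**
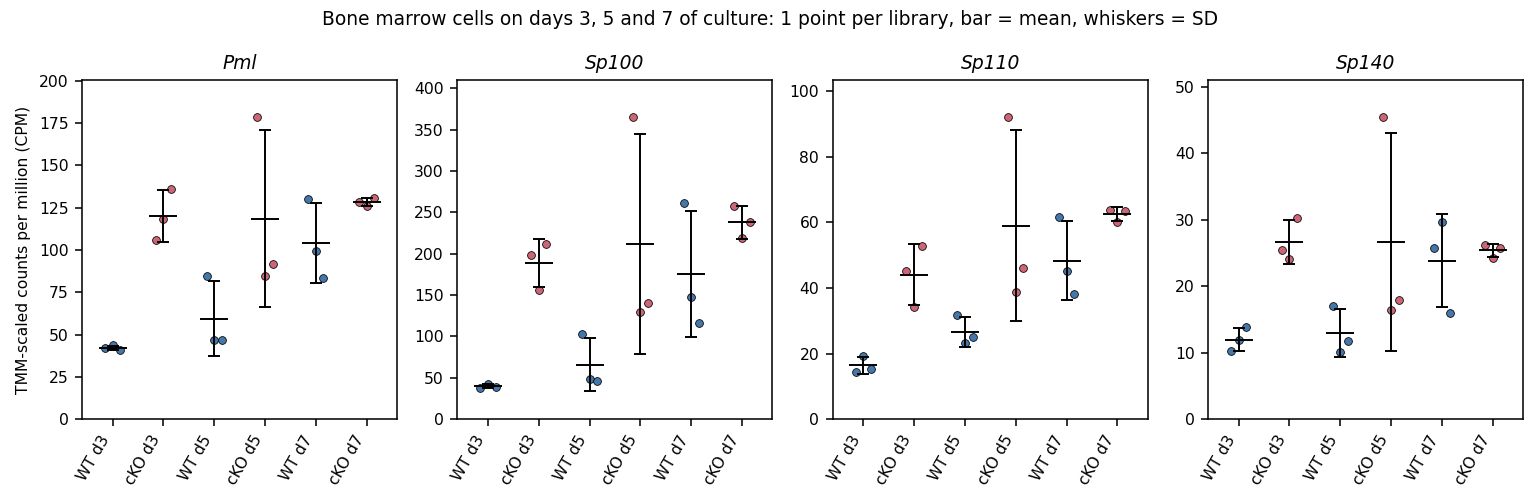
CPM of each gene (y axis, from 0) in the libraries of WT (blue) and cKO (red) cells on days 3, 5 and 7 (d3, d5, d7), 1 point per library, with the mean as a bar and the SD as whiskers. The WT points of day 3 lie below all cKO points of that day for the 4 genes, and WT and cKO points overlap on day 7.

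On day 5, Sp100 was 3.21-fold and Sp110 2.21-fold higher in cKO. Pml and Sp140 did not pass the test, which left 2 of 4 members against 2.46% of all genes called higher. Sp100 had 104, 48.1 and 46.4 CPM in WT and 366, 130 and 140 CPM in cKO (log2 fold change 1.68 ± 0.387, adjusted p = 0.0269). Sp110 had 31.9, 23.2 and 25.0 CPM in WT and 92.2, 38.7 and 46.0 CPM in cKO (1.14 ± 0.271, adjusted p = 0.0302). Replicate 1 stood apart from the others in both genotypes. Every cKO library still lay above all WT libraries for these genes, as for 15.4% of all genes. Pml was at 84.8, 47.0 and 46.5 CPM in WT and 179, 84.9 and 91.5 CPM in cKO, with no overlap (0.99 ± 0.266, adjusted p = 0.0545). Sp140 was at 17.1, 10.2 and 11.7 CPM in WT and 45.5, 16.4 and 17.9 CPM in cKO, and its groups overlapped (1.03 ± 0.326, adjusted p = 0.116). The calls of Sp100 and Sp110 were lost with the 2 groups fitted alone (adjusted p = 0.15 and 0.149), without WT replicate 2 or 3, or without cKO replicate 1, where their log2 fold changes became 1.05 and 0.68. Without WT replicate 1 Pml reached 1.34 (adjusted p = 0.0158). It was likewise called without cKO replicate 2 (1.19) or 3 (1.15), and Sp140 was called without cKO replicate 2 (1.29, adjusted p = 0.0347). DESeq2 called all 4 genes, and Pml was also called with the replicate block (adjusted p = 0.0248) or without the filter on low counts (adjusted p = 0.0421).

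On day 7 none of the 4 genes was called between the genotypes by edgeR, nor by DESeq2 or at an unadjusted p under 0.05, with 1.82% of all genes called. WT libraries had by then spread out. Sp100 ranged over 261, 148 and 116 CPM in WT and 258, 219 and 238 CPM in cKO (log2 fold change 0.44 ± 0.376, adjusted p = 0.588). Pml had 130, 99.6 and 83.2 CPM in WT and 129, 126 and 130 CPM in cKO (0.30 ± 0.262, adjusted p = 0.601). Sp110 (0.37 ± 0.266) and Sp140 (0.10 ± 0.318) overlapped as well. The log2 fold change of day 7 minus that of day 3 was -1.21 ± 0.374 for Pml, -1.80 ± 0.539 for Sp100, -1.06 ± 0.382 for Sp110 and -1.06 ± 0.456 for Sp140. None of these differences passed the adjustment (0.162, 0.151, 0.216 and 0.285 in that order), although all 4 had an unadjusted p under 0.05, as had 15.6% of all genes. Of all genes, 0.0439% were called for this difference, and DESeq2 called 1 member, Sp100. A fit of the 4 groups alone called Pml and Sp100 (adjusted p = 0.0255 and 0.0356). Between days 3 and 5, no member was called for it by edgeR or DESeq2 or at an unadjusted p under 0.05, with 0% of all genes called.

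In WT cells, all 4 genes rose from day 3 to day 7, 4.41-fold for Sp100, 2.95-fold for Sp110, 2.47-fold for Pml and 1.98-fold for Sp140, with adjusted p of 0.00167, 0.00135, 0.00339 and 0.0394. Of all genes, 12.6% were called higher on day 7. WT day 7 lay above WT day 3 in every library, as for 17.96% of all genes. The call of Sp140 was lost in 5 of 6 fits that each left out 1 library (all but WT day 7 replicate 3) and without the filter on low counts (adjusted p = 0.0513), or with WT days 3 and 7 fitted alone (adjusted p = 0.0634). In cKO cells none of the 4 was called over the same interval (log2 fold changes -0.07 to 0.50), where 14.7% of all genes were called, and no member had an unadjusted p under 0.05 or a DESeq2 call, although Sp110 was called with the 2 groups fitted alone (0.51, adjusted p = 0.0467). Of the shorter steps, WT day 5 against day 3 had 2.91% of all genes called and WT day 7 against day 5 had 0.150%, with no member called by edgeR in either. At an unadjusted p under 0.05 these steps held 1 and 4 members, against 20.8% and 17.4% of all genes, and DESeq2 called 0 and 1. The latter was Sp100 from day 5 to day 7, which was called with the replicate block too (1.42, adjusted p = 0.0241) and without WT day 5 replicate 1 (1.87) or WT day 7 replicate 3 (1.62), while Pml was called without WT day 5 replicate 1 (1.14). In cKO, day 5 against day 3 (4.89% of all genes) and day 7 against day 5 (0.0501%) had no member called by edgeR or DESeq2 or at an unadjusted p under 0.05.

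Within the time course, the order of the group means put WT day 3 last for all 4 genes and WT day 5 next to last. Pml, Sp100 and Sp110 were highest in cKO day 7 (128, 238 and 62.5 CPM) and Sp140 in cKO day 3 (26.7 CPM). Of the 5 pairs of neighbours in that order, 4 overlapped for Pml, 3 for Sp100, 3 for Sp110 and all 5 for Sp140. For Pml, Sp100 and Sp110, WT day 3 lay below WT day 5 without overlap, as for 17.25% of all genes. For Sp100, WT day 5 lay below WT day 7 without overlap too, as for 7.565% of all genes. For Sp110, WT day 5 lay below cKO day 3 without overlap, a pair that was not compared over all genes.

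Markers of other cell types moved with day and genotype too. Summed over 9 neutrophil markers, levels fell from 1587 to 3047 CPM in WT on day 3 to 74.7 to 132 CPM on day 7, all 9 called lower, while in cKO they went from 2740 to 4230 CPM to 90.1 to 276 CPM. Summed over 7 B cell markers, levels were 34.6 to 44.8 CPM in WT and 66.7 to 113 CPM in cKO on day 3, with 6 of the 7 called higher in cKO. In bulk samples a changed share of cells and a changed level per cell cannot be told apart, and the part of these cells in the members' levels was not tested.

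On day 8, IFNγ raised all 4 genes in WT BMDMs. Sp140 rose most, by 8.17-fold, then Sp110 by 5.53-fold, Pml by 4.56-fold and Sp100 by 3.87-fold. Of all genes, 19.5% were called higher.

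Sp140 went from 13.4, 13.2 and 12.6 CPM in the untreated WT libraries to 103, 121 and 95.7 CPM with IFNγ (log2 fold change 3.03 ± 0.379, adjusted p = 1.94e-04). Sp110 went from 33.3, 29.5 and 24.7 CPM to 155, 202 and 127 CPM (2.47 ± 0.346, adjusted p = 3.85e-04). Pml went from 58.1, 46.2 and 54.5 CPM to 227, 275 and 223 CPM (2.19 ± 0.173, adjusted p = 9.79e-06). All treated libraries lay above the untreated ones, as for 31.5% of all genes. With IFNγ the SD was 12.4% of the mean for Sp140, 23.3% for Sp110 and 12.1% for Pml. Sp100 went from 89.9, 90.8 and 82.7 CPM to 327, 391 and 301 CPM (1.95 ± 0.303, adjusted p = 7.33e-04). Per kilobase of exon, the untreated WT levels of the 4 genes stood in the opposite order to their fold changes, which describes 4 genes and was not tested.

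In cKO BMDMs IFNγ also raised all 4 genes, where 17.5% of all genes were called higher. The 2 libraries with IFNγ differed strongly. Replicate 1 was the smallest library of the series with 3614967 counts on genes. Reads left unmapped were 57.06% there, against 12.57% to 18.35% in the other day 8 libraries, and its TMM scaling factor was 0.46, against 0.8913 to 1.254. Their part in its levels was not tested. It had 279 CPM of Pml, 229 of Sp100, 98.4 of Sp110 and 47.7 of Sp140, and replicate 2 had 397, 646, 293 and 177 CPM. Untreated cKO libraries had 88.2 and 78.9 CPM of Pml, 163 and 159 of Sp100, 51.8 and 50.2 of Sp110 and 17.1 and 19.7 of Sp140. So even the lower IFNγ library lay above both untreated ones for each gene, as for 27.5% of all genes. Log2 fold changes were 2.02 ± 0.21 for Pml, 1.45 ± 0.366 for Sp100, 1.95 ± 0.415 for Sp110 and 2.62 ± 0.456 for Sp140 (adjusted p = 9.85e-05, 0.0132, 0.00567 and 0.0019). With the cKO groups fitted alone, Pml was the only member called, and calls of Sp100 and Sp110 were lost without either untreated library (adjusted p 0.0834 and 0.087 for Sp100, 0.0504 and 0.051 for Sp110).

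The response to IFNγ did not differ detectably between the genotypes with all libraries included. Differences of the log2 fold changes (cKO minus WT) were -0.17 ± 0.261 for Pml, -0.51 ± 0.463 for Sp100, -0.52 ± 0.518 for Sp110 and -0.41 ± 0.557 for Sp140, with 0% of all genes called and no member called by edgeR or DESeq2 or at an unadjusted p under 0.05. This rests on the 2 unlike libraries. Without replicate 2 the difference became -1.47 for Sp100, -1.55 for Sp110 and -1.68 for Sp140, all 3 called, and without replicate 1 the differences turned to 0.10 for Sp100, 0.10 for Sp110 and 0.28 for Sp140, none of them called.

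**Figure D2:**
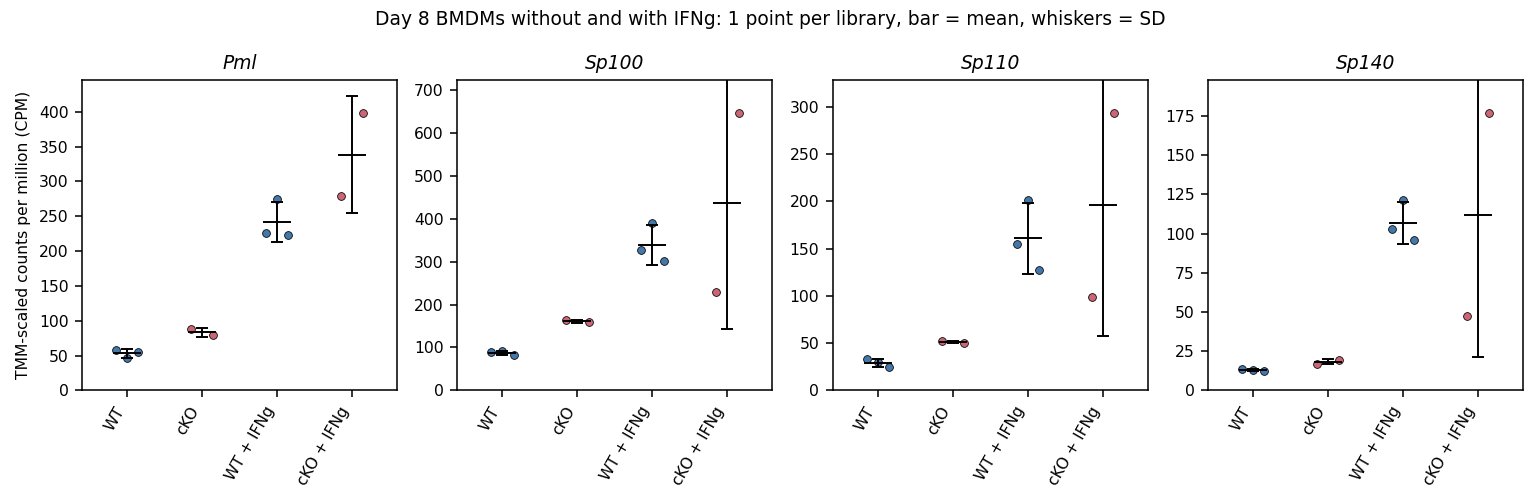
CPM of each gene (y axis, from 0) in day 8 BMDMs of WT (blue) and cKO (red), untreated or with IFNγ, 1 point per library, with the mean as a bar and the SD as whiskers. All IFNγ libraries lie above all untreated ones, and the 2 cKO libraries with IFNγ lie far apart for Sp100 (229 and 646 CPM), Sp110 and Sp140.

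Between the genotypes on day 8, no member was called in untreated BMDMs, where 0.658% of all genes were called. The log2 fold changes were 0.66 ± 0.183 for Pml, 0.87 ± 0.323 for Sp100, 0.81 ± 0.363 for Sp110 and 0.49 ± 0.393 for Sp140 (adjusted p = 0.26, 0.614, 0.821 and 1). Both cKO libraries lay above all 3 WT libraries for each of the 4 genes, as they did for 18.03% of all genes. At an unadjusted p under 0.05 there were 2, against 6.06% of all genes, DESeq2 called 0, and a fit of the 2 untreated groups alone called 3 (Pml, Sp100 and Sp110). Sp100 was called without the filter on low counts as well (0.90, adjusted p = 0.0347). With IFNγ, 5.45% of all genes and no member were called by edgeR or DESeq2, with 1 at an unadjusted p under 0.05, against 26.3% of all genes. Log2 fold changes were 0.49 ± 0.183 for Pml, 0.37 ± 0.325 for Sp100, 0.29 ± 0.363 for Sp110 and 0.08 ± 0.39 for Sp140. Without cKO replicate 1 all 4 were called higher, at 0.75, 0.95, 0.89 and 0.75 in that order, and without replicate 2 Sp100, Sp110 and Sp140 were called lower, at -0.59, -0.74 and -1.19. Thus its direction under IFNγ turned with the cKO library used. Neutrophil markers summed to at most 1.94 CPM and T and NK cell markers to at most 2.42 CPM in the day 8 libraries. B cell markers summed to 7.68 to 14.01 CPM in WT and 1.87 to 2.64 CPM in cKO without treatment, and to 11.6 to 26.5 CPM and 4.12 to 4.83 CPM with IFNγ, and the 1 tested was called lower in cKO in both. Stromal markers summed to 17.1 to 89.0 CPM in WT and 46.5 to 108 CPM in cKO without treatment and, with IFNγ, to 8.15 to 48.8 CPM and 53.1 to 340 CPM, without overlap. Of the 4 stromal markers tested between the genotypes with IFNγ, edgeR called 0 and DESeq2 1, with 3 at an unadjusted p under 0.05. The part of these markers in the members' levels was not tested.

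In peritoneal macrophages, the 4 genes did not pass the test between cKO and WT. Pml had 78.9, 115 and 106 CPM in WT and 121, 167 and 183 CPM in cKO (0.65 ± 0.209, adjusted p = 0.295). Sp100 had 177, 141 and 121 CPM in WT and 190, 185 and 244 CPM in cKO (0.49 ± 0.19, adjusted p = 0.425). For these 2 genes every cKO library lay above all WT libraries, as it did for 8.47% of all genes. Sp110 (0.15 ± 0.205) and Sp140 (-0.11 ± 0.203) overlapped. Of all genes, 1.06% were called here, 2 members had an unadjusted p under 0.05, against 9.62% of all genes, and DESeq2 called 0. Sp140, at 12.0 to 17.3 CPM in the 6 libraries, was the lowest of the 4 in these cells, per kilobase as well.

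In BMDMs without antibody, Sp100 was 2.56-fold and Sp110 1.86-fold higher in cKO, against 4.01% of all genes called higher. Sp100 had 41.8, 29.8 and 27.5 CPM in WT and 108, 86.3 and 58.5 CPM in cKO (1.35 ± 0.257, adjusted p = 0.00513). Sp110 had 17.6, 11.6 and 9.67 CPM in WT and 28.7, 26.8 and 16.7 CPM in cKO, with overlap (0.90 ± 0.234, adjusted p = 0.0287). Its call was lost in 4 of 6 fits that left out 1 library, namely WT replicate 2 or 3 and cKO replicate 1 or 2 (adjusted p 0.115 to 0.136), and with the 2 groups fitted alone (adjusted p = 0.0787). Pml had 49.5, 37.7 and 44.0 CPM in WT and 77.4, 64.0 and 46.8 CPM in cKO (0.52 ± 0.206, adjusted p = 0.118). Sp140 had 24.2, 35.7 and 28.3 CPM in WT and 28.2, 21.9 and 19.98 CPM in cKO (-0.33 ± 0.261, adjusted p = 0.41).

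Under the control antibody no member was called between the genotypes by edgeR, with 5.11% of all genes called, 2 members at an unadjusted p under 0.05 (16.04% of all genes) and 1 called by DESeq2 (Sp110). Sp100 had 27.9, 30.1 and 27.4 CPM in WT and 56.5, 51.0 and 40.2 CPM in cKO (0.79 ± 0.259, adjusted p = 0.1). Sp110 had 10.8, 11.1 and 8.15 CPM in WT and 19.1, 18.6 and 14.7 CPM in cKO (0.80 ± 0.245, adjusted p = 0.0773). Neither gene overlapped between the genotypes, as for 18.3% of all genes in that direction. With the replicate number as a block both were called (adjusted p = 0.0198 for Sp100 and 0.0382 for Sp110), and with the 2 groups fitted alone Pml was called as well, so the absence of calls depends on the model.

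Under the IFNAR1 antibody all 4 genes overlapped between the genotypes. The log2 fold changes were 0.0018 ± 0.206 for Pml, 0.24 ± 0.256 for Sp100, 0.09 ± 0.237 for Sp110 and -0.19 ± 0.261 for Sp140. No member was called by edgeR or DESeq2 or had an unadjusted p under 0.05, with 0.698% of all genes called. Sp100 had 33.7, 34.0 and 27.3 CPM in WT and 54.2, 29.3 and 28.1 CPM in cKO, in which replicate 1 stood above the others. The log2 fold change under IFNAR1 antibody minus that without antibody was -0.52 ± 0.291 for Pml, -1.11 ± 0.361 for Sp100, -0.81 ± 0.333 for Sp110 and 0.14 ± 0.369 for Sp140. None of these passed the adjustment (adjusted p = 0.974 for the first 3 and 0.986), with 2 members at an unadjusted p under 0.05 (4.59% of all genes), 0 by DESeq2 and 0.00582% of all genes called.

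**Figure D3:**
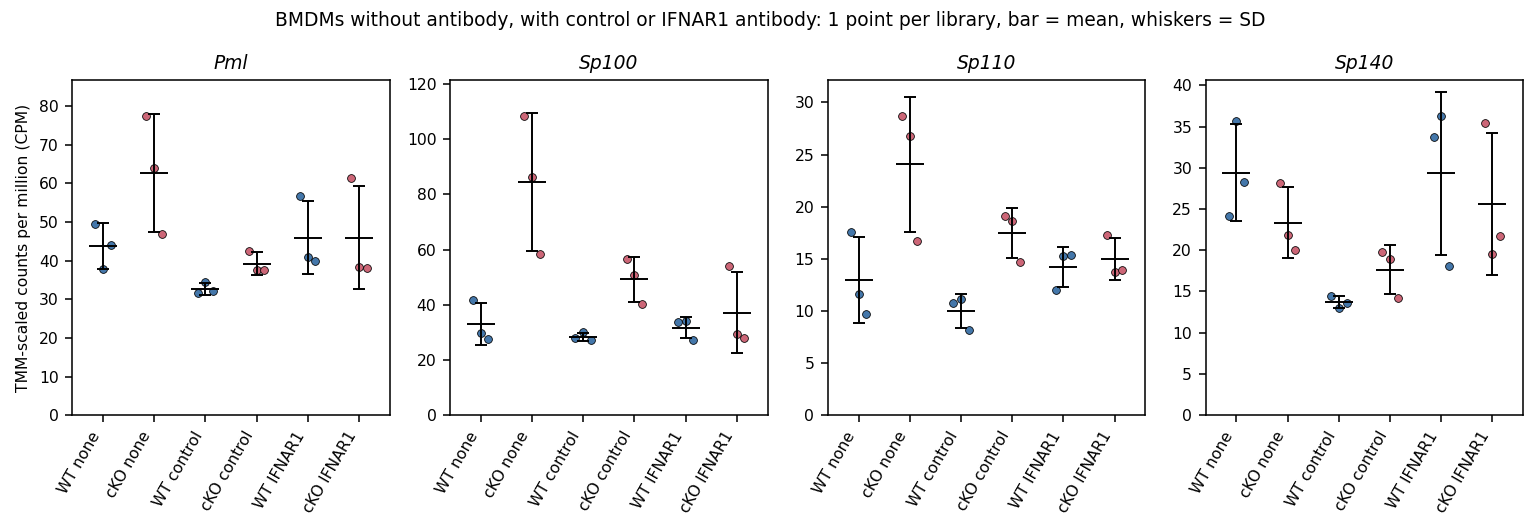
CPM of each gene (y axis, from 0) in BMDMs of WT (blue) and cKO (red) in the 3 antibody arms, 1 point per library, with the mean as a bar and the SD as whiskers. For Sp100 the cKO points without antibody (58.5 to 108 CPM) lie above all WT points, and under the IFNAR1 antibody the genotypes overlap for all 4 genes.

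Between the antibody arms within a genotype, Sp140 was the only member called. In WT BMDMs it had 14.4, 12.97 and 13.6 CPM with the control antibody and 33.8, 36.3 and 18.04 CPM with the IFNAR1 antibody, 2.15-fold higher (log2 fold change 1.10 ± 0.268, adjusted p = 0.0193), against 7.38% of all genes called higher. It was also lower with the control antibody than without antibody (-1.11 ± 0.268, adjusted p = 0.0211), against 5.95% of all genes called lower. The group that stood apart was therefore the control antibody, with IFNAR1 antibody and no antibody at like levels (29.4 CPM each on average). Both calls were lost in 5 of 6 fits that left out 1 library: the first in all but that without WT IFNAR1 replicate 3, and the second in all but that without WT no antibody replicate 1. The first was also lost with the 2 groups fitted alone (adjusted p = 0.0988). The other 3 genes were not called in either comparison. Pml in WT also stood lowest with the control antibody (31.5 to 34.4 CPM). It had 37.7 to 49.5 CPM without antibody and 39.97 to 56.8 CPM with the IFNAR1 antibody. Control overlapped with neither, as for 20.56% and 15.59% of all genes in that direction. Sp110 in WT did not overlap between control (8.15 to 11.1 CPM) and IFNAR1 antibody (11.99 to 15.4 CPM) either. Summed B cell markers took a like course in WT, at 13.3 to 21.3 CPM without antibody, 7.65 to 9.06 CPM with the control antibody and 16.2 to 34.7 CPM with the IFNAR1 antibody, although of the 4 tested only 1 was called, higher with IFNAR1 than control antibody. The sum of 9 neutrophil markers was at most 3.02 CPM in these WT libraries, and the 1 marker tested was called higher with the control antibody than without antibody and lower with IFNAR1 than control antibody. The part of these markers in the level of Sp140 was not tested. In cKO BMDMs, no member was called between IFNAR1 and control antibody, by edgeR or DESeq2 or at an unadjusted p under 0.05, with 4.68% of all genes called. Control against no antibody in cKO gave no call by edgeR or DESeq2, with 2.09% of all genes called. Pml (-0.67 ± 0.209) and Sp100 (-0.78 ± 0.255) had an unadjusted p under 0.05, against 11.99% of all genes. Neither of them overlapped, as for 15.4% of all genes in that direction. With the replicate block these 2 were called (adjusted p = 0.0303 and 0.0253). For the difference between genotypes in the response to IFNAR1 against control antibody, no member was called by edgeR or DESeq2 or at an unadjusted p under 0.05, with 0% of all genes called.

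In the 3 sets of BMDMs, Sp100 and Sp110 were higher in cKO in each set, while Pml and Sp140 were called in set 2 only. Of all genes, 17.9% were called higher in set 1, 10.1% in set 2 and 17.1% in set 3, so that 2, 4 and 2 members of 4 were called against that background. Sp100 had 137, 113 and 132 CPM in WT and 221, 201 and 218 CPM in cKO of set 1 (0.75 ± 0.101, adjusted p = 3.45e-06), a 1.68-fold difference. In set 2 it was 1.85-fold (0.89 ± 0.101, adjusted p = 4.59e-07) and in set 3 1.44-fold higher (0.52 ± 0.1, adjusted p = 2.24e-04). Sp110 had 27.1, 21.6 and 30.9 CPM in WT and 46.7, 43.4 and 44.0 CPM in cKO of set 1 (0.76 ± 0.101, adjusted p = 3.18e-06). It was 1.96-fold higher in set 2 (adjusted p = 1.23e-07) and higher in set 3 too (0.58 ± 0.0994, adjusted p = 6.15e-05). The groups of neither gene overlapped in any set, as for 21.32%, 20.02% and 20.81% of all genes in that direction in sets 1, 2 and 3.

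Pml had 103, 91.9 and 93.9 CPM in WT and 111, 103 and 116 CPM in cKO of set 1 (0.19 ± 0.0931, adjusted p = 0.112). In set 2 it had 74.8, 73.6 and 75.4 CPM in WT and 104, 129 and 107 CPM in cKO (0.61 ± 0.093, adjusted p = 2.75e-05), and in set 3 the groups overlapped (0.08 ± 0.0931, adjusted p = 0.566). Sp140 had 29.2, 22.9 and 27.9 CPM in WT and 29.9, 24.8 and 21.6 CPM in cKO of set 1, and 30.5, 22.8 and 24.5 CPM in WT and 24.2, 25.0 and 23.1 CPM in cKO of set 3, without a call in either. In set 2 it had 12.2, 11.9 and 11.8 CPM in WT and 23.9, 23.4 and 22.1 CPM in cKO (0.95 ± 0.114, adjusted p = 9.24e-07). The cKO levels of Sp140 were thus alike in all 3 sets, and it was WT of set 2 that stood low.

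The difference between the sets was tested directly. The cKO effect was larger in set 2 than in set 1 for Sp140 (by 1.02 ± 0.159, adjusted p = 8.87e-05) and Pml (by 0.41 ± 0.131, adjusted p = 0.0285), where 8.29% of all genes were called in that direction. The call of Pml was lost in 7 of 12 fits that left out 1 library, namely replicate 1 of WT set 1, replicate 1 or 2 of cKO set 1, any of WT set 2 and replicate 2 of cKO set 2 (adjusted p 0.0501 to 0.105), and with the strand column of larger total (adjusted p = 0.0643). Against set 3 the same 2 genes were called (1.06 ± 0.159 and 0.53 ± 0.131, adjusted p = 4.51e-05 and 0.00567), with 9.46% of all genes. There, leaving out WT set 3 replicate 2 added Sp100 (0.45) and Sp110 (0.48) to the calls, and leaving out cKO set 2 replicate 3 added Sp100 (0.44). Sp110 was also called with a filter on the mean CPM (adjusted p = 0.0363) or the strand column of larger total (adjusted p = 0.0257). Between sets 3 and 1 no member was called by edgeR or DESeq2 or at an unadjusted p under 0.05, with 0% of all genes called. Beside these values, summed B cell markers were 20.3 to 26.8 CPM in WT of set 2, against 110 to 188 CPM in WT of set 1 and 95.2 to 193 CPM in WT of set 3, and 33.9 to 61.3 CPM in the cKO sets. The sums of sets 1 and 3 were mostly Ighm, the heavy chain of IgM, at 107 to 184 CPM in WT and 34.5 to 50.8 CPM in cKO of set 1, and at 92.4 to 187 CPM in WT and 30.3 to 48.4 CPM in cKO of set 3. By gene, 5 of the 7 markers were called higher in cKO and 1 lower in set 1, 2 higher and 0 lower in set 2, and 3 higher and 1 lower in set 3. The part of these markers in the members' levels was not tested.

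**Figure D4:**
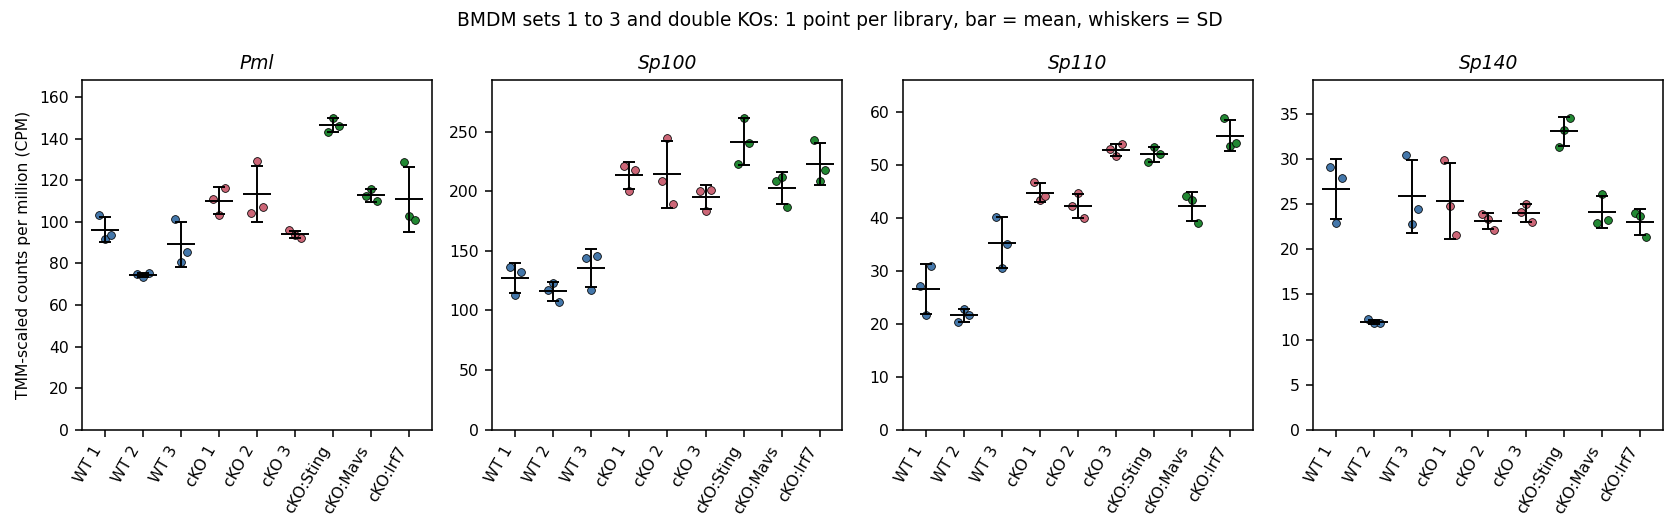
CPM of each gene (y axis, from 0) in the 3 sets of WT (blue) and cKO (red) BMDMs and in the double KOs (green), 1 point per library, with the mean as a bar and the SD as whiskers. WT of set 2 lies below all other groups for Sp140 (11.8 to 12.2 CPM), and H3.3cKO:StingKO lies above all other groups for Pml and Sp140.

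Pml, Sp100 and Sp110 were higher than in WT in each of the 3 double KOs. Each double KO was compared with all 9 cKO and all 9 WT libraries of the sets, since the labels do not match them. These 9 may not all be independent, as sets 1 and 3 are not clearly separate experiments. Against WT, all 4 genes were higher in H3.3cKO:StingKO (20.5% of all genes called higher) and in the libraries labelled H3.3cKO:MavsKO (22.1%), and 3 of 4 in H3.3cKO:Irf7KO (15.1%), where Sp140 was not called (0.19 ± 0.0907, adjusted p = 0.119). Sp100 was 1.92-fold, 1.61-fold and 1.77-fold above WT in these 3, and Sp110 1.91-fold, 1.55-fold and 2.04-fold. For Sp140 in the MavsKO libraries (0.26 ± 0.0897, adjusted p = 0.0242) the call was lost without MavsKO replicate 2 (adjusted p = 0.164) and with the strand column of larger total (adjusted p = 0.0593). It also depended on the reference, at -0.14 against set 1 and -0.11 against set 3, in which WT Sp140 is higher than in set 2. Sp140 in H3.3cKO:Irf7KO was called against set 2 alone (0.94, adjusted p = 5.7e-07) and without WT set 3 replicate 1 (0.24, adjusted p = 0.0315), and lay at -0.21 against set 1 and -0.17 against set 3. Pml in H3.3cKO:Irf7KO (0.36 ± 0.0744) lost its call against set 1 alone (0.20, adjusted p = 0.0953).

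Against cKO, H3.3cKO:StingKO had still higher levels of 3 members, with 19.1% of all genes called higher. Pml had 143, 150 and 146 CPM there, against 92.4 to 129 CPM in the 9 cKO libraries (0.47 ± 0.0737, adjusted p = 3.26e-05). Sp140 had 31.4, 33.3 and 34.6 CPM against 21.6 to 29.9 CPM (0.45 ± 0.088, adjusted p = 3.2e-04). All 3 libraries lay above all 9 for both genes, as they did for 11.6% of all genes. Sp100 was called with overlap (0.22 ± 0.0805, adjusted p = 0.0346), a call lost in 6 of 12 fits that left out 1 library (H3.3cKO:StingKO replicates 2 and 3, set 1 replicate 2, set 2 replicates 1 and 3 and set 3 replicate 2, adjusted p 0.0557 to 0.219), without the filter on low counts (adjusted p = 0.0672), and against set 1 or 2 alone (0.18 and 0.17). Sp110 was not called (0.16 ± 0.0798, adjusted p = 0.113), except with the groups fitted alone (adjusted p = 0.0302) or against set 2 (0.30, adjusted p = 0.0207). In the libraries labelled H3.3cKO:MavsKO no difference from cKO was detectable, with 9.32% of all genes and no member called by edgeR or DESeq2 or at an unadjusted p under 0.05, although against set 3 alone Pml was called higher (0.26, adjusted p = 0.0489) and Sp110 lower (-0.33, adjusted p = 0.0207). In H3.3cKO:Irf7KO, H3f3a (-0.913, adjusted p = 5.45e-05) and H3f3b (-0.728, adjusted p = 0.00131) were called lower than in cKO. Their part in the members' levels was not tested. Sp110 was called 1.20-fold higher there than in cKO (0.26 ± 0.079, adjusted p = 0.0362, 4.81% of all genes called higher). That call was lost in 8 of 12 fits that left out 1 library (any of H3.3cKO:Irf7KO, set 1 replicates 2 and 3, set 2 replicates 1 and 3 and set 3 replicate 2, adjusted p 0.0513 to 0.207), with the strand column of larger total (adjusted p = 0.077) and against set 3 alone (0.07). Files of H3.3cKO:Irf7KO and set 3 list 54146 genes, and those of sets 1 and 2 list 55536. Sp110 averaged 52.8 CPM in cKO of set 3, against 44.7 and 42.2 CPM in cKO of sets 1 and 2. In WT it averaged 35.3 CPM in set 3, against 26.6 and 21.6 CPM. The part of the gene list in the call of Sp110 was not tested.

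The double KOs were also compared with each other. Pml and Sp140 were higher in H3.3cKO:StingKO than in H3.3cKO:MavsKO libraries (0.38 ± 0.0926 and 0.46 ± 0.11, adjusted p = 0.0028 and 0.00254) and than in H3.3cKO:Irf7KO (0.40 ± 0.0927 and 0.52 ± 0.111, adjusted p = 0.00247 and 0.00127). Sp110 was higher only in the first of these comparisons (0.30 ± 0.0986, adjusted p = 0.0199), a call lost with the strand column of larger total (adjusted p = 0.0915) and without H3.3cKO:StingKO replicate 2 or 3 or H3.3cKO:MavsKO replicate 3 (adjusted p 0.0529 to 0.102). Sp100 (0.25 ± 0.0998, adjusted p = 0.0529) was called in that comparison without H3.3cKO:StingKO replicate 1 (adjusted p = 0.0472), with the groups fitted alone (0.0239), with a filter on the mean CPM (0.0466), and with the strand column of larger total (0.0484). Of all genes, 16.4% and 15.7% were called higher in these 2 comparisons. Summed neutrophil markers were 243 to 253 CPM in H3.3cKO:StingKO, 57.7 to 119 CPM in the MavsKO libraries, 84.7 to 115 CPM in H3.3cKO:Irf7KO and 151 to 321 CPM in the cKO sets. Summed over 5 stromal markers, levels were 162 to 200 CPM in H3.3cKO:StingKO, 80.2 to 288 CPM in the MavsKO libraries, 29 to 46.96 CPM in H3.3cKO:Irf7KO and 22.9 to 68.99 CPM in the cKO sets. Of the 4 stromal markers tested, 3 were called higher in H3.3cKO:StingKO and 4 in the MavsKO libraries than in cKO, and 4 in H3.3cKO:StingKO than in H3.3cKO:Irf7KO. The part of either list in these differences was not tested.

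Over the 12 comparisons of cKO with WT, Sp100 and Sp110 had a log2 fold change above 0 in all 12 and were called higher in 6 each. Pml was above 0 in all 12 and called in 2, and Sp140 was above 0 in 7 and called in 2. None was called lower in any of these. The 12 comparisons may not all be independent, as 2 of the BMDM sets are not clearly separate experiments, as described above. Sp100 and Sp110 were called higher in both of those sets. How often other genes reached such counts over the 12 comparisons was not tested. The log2 fold changes ran from 0.24 to 2.25 for Sp100 (median 0.77), 0.09 to 1.43 for Sp110 (0.78), 0.0018 to 1.51 for Pml (0.50) and -0.33 to 1.15 for Sp140 (0.09). Leaving out 1 library turned Sp100 negative on day 8 with IFNγ (-0.59) and under the IFNAR1 antibody (-0.14), and Sp110 in these (-0.74 and -0.03) and in peritoneal macrophages (-0.05). Pml under the IFNAR1 antibody, at 0.0018, also turned negative with DESeq2 or another scaling or filter.

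**Figure D5:**
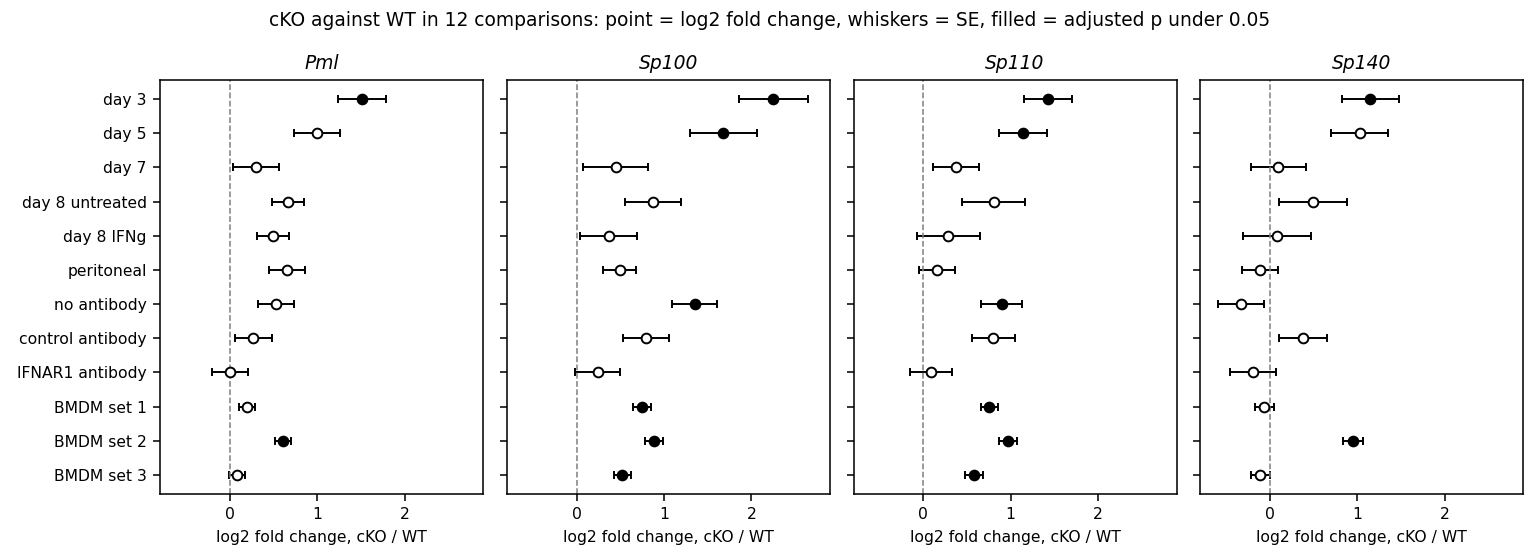
Log2 fold change of cKO over WT (x axis) for each gene in the 12 comparisons of these genotypes (y axis), with the SE as whiskers and filled points for an adjusted p under 0.05 by edgeR's quasi-likelihood test. Sp100 and Sp110 lie to the right of 0 in all comparisons, from 0.24 to 2.25 and from 0.09 to 1.43, and Sp140 runs from -0.33 to 0.49 outside days 3 and 5 and set 2.

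Of 18 genes for proteins found in or acting with these bodies, 2 were called higher in cKO on day 3 (median log2 fold change -0.02), beside 6% of all genes (median 0.0365) and 20 of 20 interferon effector genes (median 5.69). The 2 were Isg20, an RNA exonuclease (4.54, adjusted p = 0.0136), and Daxx, the H3.3 chaperone (1.48, adjusted p = 0.0135). On day 5 the same count was 2 of 18, beside 2.46% of all genes, again Isg20 (4.37) and Daxx (1.49). On day 7 edgeR and DESeq2 called 0, beside 1.82% of all genes called by edgeR, with 2 at an unadjusted p under 0.05. Of 16 genes of the SUMO pathway, which attaches and removes the modifier that holds the bodies together, edgeR and DESeq2 called 0 between the genotypes on each of these days, with 3, 1 and 1 at an unadjusted p under 0.05. Of 5 measured relatives of Sp100 and other SAND domain genes, A530032D15Rik was called on day 3 (1.88, adjusted p = 0.0492). In interferon signalling, 6 of 13 genes were called higher and 1 lower on day 3, led by Irf7 (6.61) and Stat2 (2.83).

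With IFNγ in WT, 6 of the 18 partners were called higher and 5 lower (median -0.04), beside 19.5% and 19.3% of all genes (median -0.00803), with Isg20 (4.15) and Daxx (2.82) in the lead. Of the 4 SAND relatives measured, A530032D15Rik (3.83) and Gmeb2 (0.94) were called higher and 1 was called lower. In cKO, IFNγ gave 4 higher and 3 lower of the 18 partners, beside 17.5% and 16.4% of all genes. All 20 effectors were called higher in both genotypes, with medians of 4.14 in WT and 3.39 in cKO.

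In the sets, 13 of the 18 partners were called higher in cKO of set 1 and 12 in set 3, but 2 in set 2, Isg20 (1.73) and Daxx (0.52), beside the 17.9%, 17.1% and 10.1% of all genes given for sets 1, 3 and 2. The SUMO genes followed the same split, with 7, 0 and 7 of 16 called higher in sets 1, 2 and 3 (in set 2, 1 at an unadjusted p under 0.05 and 0 by DESeq2). The difference of the cKO effect between sets 2 and 1 was called for 7 partners, 6 lower and 1 higher, and for 4 SUMO genes, all lower. Of all genes, 11.67% were called lower and 8.29% higher for it. For Pml and Sp140 the effect was larger in set 2. In H3.3cKO:StingKO against cKO, 4 partners were called higher, among them Isg20 (0.98) and Daxx (0.59), and 10 lower, beside 19.1% and 17.2% of all genes, while 14 of the 20 effectors were called higher and none lower. For the MavsKO libraries against cKO, edgeR called 0 effectors, DESeq2 called 1, and 2 had an unadjusted p under 0.05.

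Without antibody, Hipk2 (0.67) and Morc3 (0.41) were the partners called higher in cKO. Of the 20 effectors, 19 were called higher (median 2.39), beside 4.01% of all genes. Under the IFNAR1 antibody 13 effectors were called higher, beside 0.483% of all genes. Of the partners edgeR and DESeq2 called 0, with 4 at an unadjusted p under 0.05, against 12.03% of all genes. In peritoneal macrophages 9 effectors were called higher, beside 0.639% of all genes, and 0 partners were called by either tool (1 at an unadjusted p under 0.05). In untreated day 8 BMDMs 14 effectors and 1 partner, Isg20 (1.78), were called higher in cKO, beside 0.558% of all genes.

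The 27 group means (log2 CPM) of each gene were centred on their mean within each experiment and then correlated. The genes most like each member were taken from the 8720 genes whose mean before centring reached 3. Groups share experiments, genotypes and libraries' depth, so the correlations describe these groups only. For Pml they were Trafd1 (r = 0.977), Uba7, Slfn2, Rnf114 and Psmb9. For Sp100 they were Parp9 (0.983), Dhx58, Herc6, Zbp1 and Trim30a (0.977). For Sp110 they were Phf11b (0.964), Nmi, Psmb9, Ifi47 and Dtx3l, and for Sp140 Irf1 (0.956), Fgl2, H2-DMa, Apobec3 and Gsdmd (0.933). Psmb9, a subunit of the immunoproteasome, stood on the lists of both Pml and Sp110, and no gene was on the lists of Sp100 and Sp140 at once. Between members, r was highest for Sp100 and Sp110 (0.933), followed by Pml and Sp110 (0.921), Pml and Sp100 (0.899) and Pml and Sp140 (0.897), and lowest for Sp100 and Sp140 (0.708), which lie side by side on chromosome 1. Each member had other genes more like it than any member. The rank of one member for another ran from 13 (Sp100 for Sp110) to 469 (Sp100 for Sp140).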

How the data were processed

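RNA-seq of 81 libraries was analysed, in groups given by the labels. Of these, 2 cKO libraries of day 8 whose labels conflict on IFNγ were left out of all tests. By the methods, the authors depleted ribosomal RNA, prepared libraries with a kit that does not mark strand (for peritoneal macrophages, labels and methods name different kits), trimmed reads with Cutadapt and aligned them with STAR to mm10. The deposited values used here are raw gene counts from STAR, without normalization, counted without regard to strand. Unmapped (median 8.31%), multimapping (8.84%), no-feature (13.9%) and ambiguous (4.85%) reads stayed out of library sizes. The files of the sets and double KOs were joined on identifiers without versions. Those of set 3 and H3.3cKO:Irf7KO list 54146 genes, and those of the other sets and double KOs list 55536.

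Each experiment was fitted separately with edgeR 4.0.16 (R 4.3.3, limma 3.58.1), after filterByExpr by group (smallest count 10, smallest total 15) and TMM scaling, with 1 coefficient per group, by the quasi-likelihood test (glmQLFit and glmQLFTest). Benjamini-Hochberg adjustment ran across every gene in the fit, and an adjusted p under 0.05 was a call. All tests were two-sided. The SE is the log2 fold change divided by the square root of F. CPM are TMM-scaled and SDs are between libraries. The code was tested on simulated data. The members, the lists (PML body partners, SUMO pathway, SAND and Sp100 relatives, interferon signalling, interferon effectors, and cell type markers) and the tests were chosen with earlier results of these data known. In each list the called genes with the largest change were named, up to 2 per comparison. The response of the SUMO list to IFNγ is not reported here. Genes like a member were the 5 with the highest Pearson correlation over group means, centred within each experiment.

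The alternatives tried were RLE scaling, DESeq2 1.42.0, keeping genes with low counts, keeping genes that average 1 CPM or more, the strand column with the larger total, a fit of the groups compared alone, the replicate number as a block, each library left out, an absolute log2 fold change of at least 1, and single sets as reference for the double KOs. The earlier quasi-likelihood method of edgeR and 6 comparisons (between the sets, between the double KOs, and the cKO effect under IFNAR1 antibody against none) were chosen after seeing the data. Whether equal replicate numbers pair libraries was checked by the correlation of their deviations from the group means: of 26 comparisons of 2 groups, 7 had every pair above 0.1 (cKO against WT on days 3 and 7 and in peritoneal macrophages, cKO day 7 against days 5 and 3, IFNγ in WT, and control against no antibody in WT), and in these the replicate block changed no call of a member. No 2 libraries of a group were alike within sampling noise. Depth limits Sp140 and Sp110 most, with as few as 79 and 89 counts in a library.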

Additional observations from a re-analysis of the deposited data

Results flagged for a closer look

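The effect of H3.3 loss differed between the BMDM sets for 2 members, by the interaction term of the model. For Pml, the log2 fold change of cKO over WT was larger in set 2 than in set 1 by 0.412 ± 0.131 and larger than in set 3 by 0.531 ± 0.131. For Sp140, it was larger in set 2 than in set 1 by 1.02 ± 0.159 and larger than in set 3 by 1.06 ± 0.159. In each case, WT of set 2 had the lower level, and the 9 cKO libraries lay close together for Sp140. For Pml, cKO of set 2 (104 to 129 CPM) also lay above cKO of set 3 (92.4 to 96.0 CPM). These comparisons were added after seeing the data, and the labels do not tell how the sets differ. No explanation was tested.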

How the results depend on the processing

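Of 2848 log2 fold changes of the 4 genes under an alternative, 2602 kept their direction and side of the threshold, 109 lost a call, 56 gained one and 81 changed sign. Among these alternatives, 864 of 975 called values kept call and direction. The replicate block changed no call of a member in the 7 comparisons in which equal numbers pair libraries. In the others libraries share only a number, and there it added calls of Pml on day 5, of Sp100 in WT day 7 against day 5, of Sp100 and Sp110 with the control antibody, and of Pml and Sp100 in cKO control against no antibody. The cause of the changes was not tested. With 2 or 3 libraries in a group, calls near the threshold depend on single libraries, and counts of Sp140 and Sp110 are the lowest of the 4.

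The number of members called moved by over 1.5 times under these alternatives (the reported number follows in parentheses). With DESeq2 it was 4 (2) for cKO against WT day 5, 1 (0) for WT day 7 against day 5, 1 (0) for cKO effect day 7 minus day 3 and 1 (0) for cKO against WT control antibody. With only the groups compared in the fit it was 0 (2) for cKO against WT day 5, 1 (0) for cKO day 7 against day 3, 2 (0) for cKO effect day 7 minus day 3, 3 (0) for cKO against WT day 8 untreated, 1 (4) for cKO day 8 IFNγ against untreated, 1 (2) for cKO against WT no antibody, 3 (0) for cKO against WT control antibody, 0 (1) for WT IFNAR1 against control antibody and 2 (0) for cKO control against no antibody. With the replicate block it was 1 (0) for WT day 7 against day 5, 2 (0) for cKO against WT control antibody and 2 (0) for cKO control against no antibody. With the replicate block within each genotype it was 1 (0) for WT day 7 against day 5 and 2 (0) for cKO control against no antibody. Without the filter on low counts it was 1 (0) for cKO against WT day 8 untreated. With an absolute log2 fold change of at least 1 it was 1 (2) for cKO against WT no antibody, 0 (2) for cKO against WT set 1, 0 (4) for cKO against WT set 2, 0 (2) for cKO against WT set 3, 0 (3) for Sting double KO against cKO sets, 0 (4) for Sting double KO against WT sets, 0 (4) for Mavs double KO against WT sets, 0 (1) for Irf7 double KO against cKO sets, 1 (3) for Irf7 double KO against WT sets, 1 (2) for cKO effect set 2 minus set 1, 1 (2) for cKO effect set 2 minus set 3, 0 (3) for Sting against Mavs double KO and 0 (2) for Sting against Irf7 double KO. With the strand column of larger total it was 0 (1) for Irf7 double KO against cKO sets and 1 (2) for cKO effect set 2 minus set 1. With set 3 as the sole reference it was 2 (0) for Mavs double KO against cKO sets and 0 (1) for Irf7 double KO against cKO sets.

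Signs turned in these values, none of them called as reported except Sp140 in the MavsKO libraries against WT. With DESeq2 the log2 fold change was 0.0069 for Sp140 in cKO day 5 against day 3, -0.00181 for Pml in cKO against WT IFNAR1 antibody and 0.00505 for Sp140 in cKO effect set 3 minus set 1. With RLE scaling the log2 fold change was 0.00403 for Sp140 in cKO day 5 against day 3, -0.00139 for Pml in cKO against WT IFNAR1 antibody and 0.00471 for Sp140 in cKO effect set 3 minus set 1. Without the filter on low counts the log2 fold change was 0.00506 for Sp140 in cKO day 5 against day 3 and -0.0237 for Pml in cKO against WT IFNAR1 antibody. With the strand column of larger total the log2 fold change was 0.0632 for Sp140 in cKO day 5 against day 3 and 0.0176 for Sp140 in cKO effect set 3 minus set 1. With only the groups compared in the fit the log2 fold change was 0.00048 for Sp140 in cKO day 5 against day 3. With the replicate block the log2 fold change was 0.00868 for Sp140 in cKO day 7 against day 5, -0.114 for Sp140 in cKO against WT day 8 IFNγ, -0.0091 for Pml in cKO against WT IFNAR1 antibody and 0.000371 for Sp140 in Mavs double KO against cKO sets. With the replicate block within each genotype the log2 fold change was 0.0401 for Sp140 in cKO day 7 against day 5. With a mean of at least 1 CPM the log2 fold change was -0.00204 for Pml in cKO against WT IFNAR1 antibody. With set 1 as the sole reference the log2 fold change was -0.14 for Sp140 in Mavs double KO against WT sets and -0.206 for Sp140 in Irf7 double KO against WT sets. With set 2 as the sole reference the log2 fold change was -0.0103 for Pml in Mavs double KO against cKO sets, 0.0594 for Sp140 in Mavs double KO against cKO sets and -0.034 for Pml in Irf7 double KO against cKO sets. With set 3 as the sole reference the log2 fold change was -0.0233 for Sp110 in Sting double KO against cKO sets, 0.054 for Sp100 in Mavs double KO against cKO sets, 0.00521 for Sp140 in Mavs double KO against cKO sets, -0.106 for Sp140 in Mavs double KO against WT sets and -0.172 for Sp140 in Irf7 double KO against WT sets.

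Leaving out 1 library at a time gave the following ranges where a sign turned or the number of calls moved by over 1.5 times. For Pml the log2 fold change ran from -0.429 to 0.18 for cKO day 5 against day 3, -0.0789 to 0.53 for cKO day 7 against day 5, -0.479 to 0.107 for IFNγ effect cKO minus WT, -0.0383 to 0.347 for cKO IFNAR1 against control antibody, -0.266 to 0.186 for cKO against WT IFNAR1 antibody and -0.053 to 0.134 for Irf7 double KO against cKO sets. For Sp100 the log2 fold change ran from -0.466 to 0.432 for cKO day 5 against day 3, -0.0888 to 0.809 for cKO day 7 against day 5, -1.47 to 0.1 for IFNγ effect cKO minus WT, -0.593 to 0.953 for cKO against WT day 8 IFNγ, -0.14 to 0.404 for cKO against WT IFNAR1 antibody and -0.0664 to 0.0214 for Mavs double KO against cKO sets. For Sp110 the log2 fold change ran from -0.042 to 0.659 for cKO day 5 against day 3, -0.148 to 0.552 for cKO day 7 against day 5, -1.55 to 0.102 for IFNγ effect cKO minus WT, -0.738 to 0.889 for cKO against WT day 8 IFNγ, -0.0456 to 0.274 for cKO against WT peritoneal and -0.0347 to 0.151 for cKO against WT IFNAR1 antibody. For Sp140 the log2 fold change ran from -0.132 to 0.232 for WT day 5 against day 3, -0.728 to 0.151 for cKO effect day 5 minus day 3, -0.622 to 0.258 for cKO day 5 against day 3, -0.138 to 0.0313 for cKO day 7 against day 3, -0.322 to 0.557 for cKO day 7 against day 5, -0.11 to 0.279 for cKO against WT day 7, -1.68 to 0.284 for IFNγ effect cKO minus WT, -1.19 to 0.752 for cKO against WT day 8 IFNγ, -0.238 to 0.00107 for cKO against WT peritoneal, -0.176 to 0.317 for cKO effect IFNAR1 minus no antibody, -0.195 to 0.0422 for cKO against WT set 1, -0.152 to 0.0895 for cKO effect set 3 minus set 1, -0.0666 to 0.0419 for Mavs double KO against cKO sets and -0.194 to 0.0252 for cKO against WT set 3. The number of members called ran from 0 to 4 for cKO against WT day 5, 0 to 2 for WT day 7 against day 5, 0 to 3 for IFNγ effect cKO minus WT, 2 to 4 for cKO day 8 IFNγ against untreated, 0 to 4 for cKO against WT day 8 IFNγ, 1 to 2 for cKO against WT no antibody, 0 to 1 for WT control against no antibody, 0 to 1 for WT IFNAR1 against control antibody, 1 to 2 for cKO effect set 2 minus set 1, 0 to 1 for Irf7 double KO against cKO sets and 2 to 4 for cKO effect set 2 minus set 3. It moved by at most 1.5 times, to 3 (4) in each such fit for cKO against WT day 3, 3 to 4 (3) for Irf7 double KO against WT sets, 3 to 4 (4) for Mavs double KO against WT sets, 2 to 3 (3) for Sting double KO against cKO sets, 2 to 4 (3) for Sting against Mavs double KO and 3 to 4 (4) for WT day 7 against day 3.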

Other observations

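IFNγ treatment is given differently by separate label fields of 2 cKO libraries from day 8. Scaled with the other day 8 libraries, the first had 73.4 CPM of Pml, 137 CPM of Sp100, 45.4 CPM of Sp110 and 12.99 CPM of Sp140. The second had 388 CPM of Pml, 618 CPM of Sp100, 281 CPM of Sp110 and 174 CPM of Sp140. They are given as single values and entered no comparison.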
